A study of Mus musculus with 18 samples.

Results

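The stimulator of interferon genes, Sting1, was described together with 9 genes that sense foreign or misplaced nucleic acid or that carry the interferon signal into the cell: Tlr3, Mavs, Tbk1, Irf3, Ifnar1, Ifnar2, Ifngr1, Jak1 and Tyk2. The genes were chosen by name, as probe sets that the array's annotation pairs with exactly 1 gene, and all 10 of 10 were found, each with 1 probe set, among 19938 genes measured this way. They were measured on 18 Affymetrix Mouse Gene ST arrays, 12 of epidermis and 6 of dorsal root ganglia (DRG), the clusters of sensory neuron cell bodies beside the spinal cord, with 3 arrays in each of 6 groups. Signals are given per probe set on the log2 scale, as left by robust multiarray averaging (RMA), so a difference of 1 is a 2-fold difference.

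Epidermis came from control and from mutant mice, each either naive or given CFA, and DRG came from naive mice of both genotypes, which makes the 6 groups. Mutant mice were K14Cre-Trpa1 fl/fl and control mice, labelled wild type, were K14Cre-Trpa1+/+, so mice of both genotypes carried Cre recombinase driven by the promoter of keratin 14, a keratinocyte gene. All were adult males of a mixed background, and the colonies of the 2 genotypes had been bred apart for generations, so genotype and colony cannot be told apart. The floxed gene encodes the ion channel TRPA1, and its own probe set lay at background in epidermis and so did not check the genotype there. CFA, complete Freund's adjuvant, is an oil emulsion with killed mycobacteria that inflames the injected paw, and epidermis was peeled from hindpaw skin 2 days after the injection. Naive paws were the comparison for CFA, since no array came from paws injected with vehicle.

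Nucleic acid sensing starts with receptors that bind DNA or RNA where none should be. STING, an adaptor in the membrane of the endoplasmic reticulum, answers a messenger made when DNA is found in the cytosol, TLR3 binds double-stranded RNA in endosomes, and MAVS on mitochondria relays the cytosolic RNA sensors. All of these activate the kinase TBK1, which phosphorylates the transcription factor IRF3 so that interferon is made. Secreted type I interferon binds the receptor chains IFNAR1 and IFNAR2, type II interferon binds IFNGR1 with its partner chain, and receptor-bound kinases, JAK1 for both signals and TYK2 for type I interferon, pass them to STAT proteins. Keratinocytes and the immune cells that live among them both use these routes.

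Keratinocyte markers were near the top of every epidermal array, with a list mean of 11.86 to 11.97 in log2 signal, and markers of neutrophils and endothelial cells had list means of 3.72 to 4.48 there, below background on all 12 arrays. A list mean does not speak for each gene. The neutrophil marker Cxcr2 was above background on all 12, at 6.31 to 6.78 in naive and 4.83 to 5.65 in CFA epidermis. Background was taken on each array as the 95th percentile of 1223 receptor probe sets that skin and ganglia are not thought to use, and came to 4.57 to 4.78 in epidermis and 5.78 to 5.93 in DRG. Of the members, only Sting1 reached down to it, and the other 9 were above background on all 18 arrays. CFA mutant replicate 3 stood apart from mutant replicates 1 and 2 in some genes, Sting1 among them. Over all probe sets it correlated at r = 0.9941 and 0.9942 with mutant replicates 1 and 2, which correlated with each other at 0.9956. Its highest correlation, 0.9945, was with CFA control replicate 3. That control array correlated with mutant replicates 1 and 2 at 0.9920 and 0.9912. With CFA control replicates 1 and 2 mutant replicate 3 correlated at 0.9914 and 0.9908. The CFA control arrays correlated with each other at 0.9921 to 0.9934. Results that rest on CFA mutant replicate 3 are given with and without it.

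Sting1 (probe set 10458314) had the widest range of the 10 genes. Its log2 signal was 4.71, 4.49 and 4.87 in naive control epidermis and 4.51, 4.89 and 4.67 in naive mutant epidermis, which is at background, with 2 of 3 arrays of each group above it. In CFA control epidermis it was 9.03, 9.06 and 9.02, so the 3 arrays lay close together, with an SD of 0.02, and far above every naive array. In CFA mutant epidermis it was 6.35, 6.36 and 9.11. Replicates 1 and 2 of the mutant were therefore well above the naive arrays and well below the controls, and replicate 3 was slightly above the highest control.

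**Figure D1:**
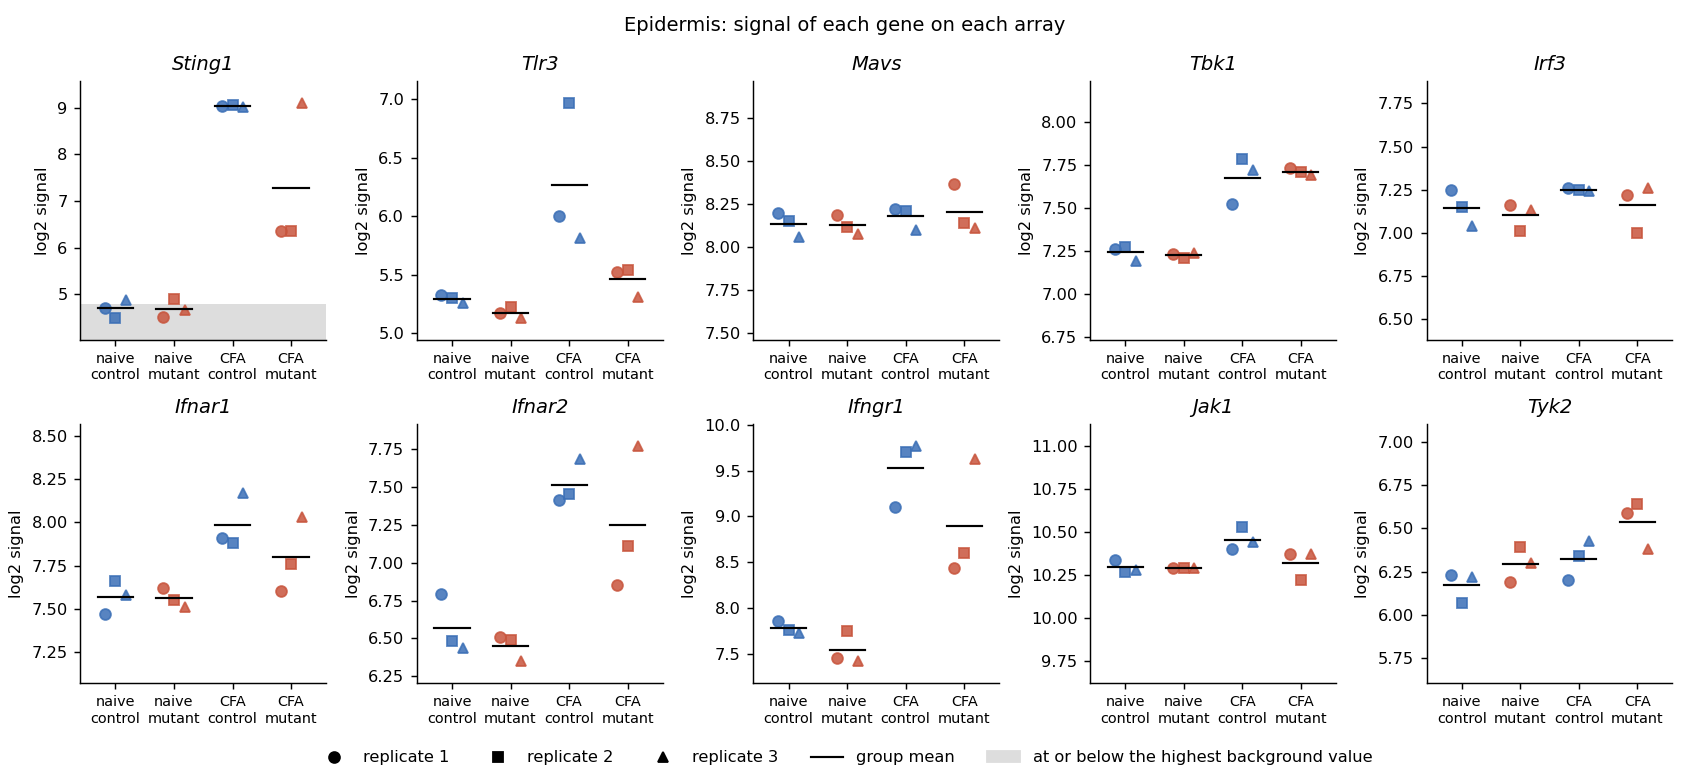
Log2 signal of the 10 genes (y axis, a separate scale in each panel) on the 12 epidermal arrays, by group (x axis, blue for control and red for mutant mice, one symbol per replicate, black bar for the group mean of 3 arrays). Sting1 rises from background in naive epidermis to 9.02 to 9.06 in CFA control epidermis, and in CFA mutant epidermis replicates 1 and 2 stop at 6.35 and 6.36 while replicate 3 reaches 9.11.

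In control epidermis, 6 of the 10 genes rose after CFA, against 26.3% of the 23410 probe sets tested that changed in either direction in this comparison (limma, adjusted p under 0.05). They were Sting1, Tlr3, Tbk1, Ifnar1, Ifnar2 and Ifngr1, and none of the 10 fell. The median change of the 10 was 0.43 on the log2 scale. In mutant epidermis 5 of the 10 rose, which were the same genes without Ifnar1, against 26.0% of all probe sets changed, with a median of 0.27. Mavs, Irf3, Jak1 and Tyk2 did not pass the test in either genotype, so the genes that moved were spread over sensors, the kinase and the receptors, while the RNA adaptor, the transcription factor and both JAK kinases were not called.

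Among the sensors, Sting1 rose 20.3-fold in control epidermis, a log2 difference of 4.35 ± 0.11 (SE, n = 3 and 3) with adjusted p = 8.71e-08 in limma. In mutant epidermis it rose 5.99-fold, a log2 difference of 2.58 ± 0.64 with adjusted p = 0.0193 in limma. Both folds are taken from a naive level at background, where signals are bounded from below. Without CFA mutant replicate 3 the rise in mutant epidermis was 3.16-fold, with adjusted p = 0.000132 in limma. The call in mutant mice was lost in 5 of 15 alternatives. Without naive mutant replicate 1 or 3 adjusted p was 0.0591 and 0.0543 in limma. With all probe sets of the table tested it was 0.0535 and with the trend and robust options 0.113 in limma. The ordinary linear model gave adjusted p = 0.147.

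Tlr3 (probe set 10578493), the double-stranded RNA receptor, was at 5.33, 5.30 and 5.26 in log2 signal in naive control epidermis and at 6.00, 6.97 and 5.81 in CFA control epidermis. The 3 CFA arrays were all above the 3 naive ones, and control replicate 2 stood well above its partners. In mutant epidermis Tlr3 went from 5.17, 5.22 and 5.13 to 5.52, 5.54 and 5.31. The rise was 1.96-fold in control mice, with adjusted p = 0.02, and 1.22-fold in mutant mice, with adjusted p = 0.0419 in limma. The call in control mice was lost when any 1 naive control array was left out, with adjusted p between 0.0504 and 0.0567 in limma. Without CFA control replicate 2 the rise in control mice was 0.61 on the log2 scale, with adjusted p = 0.0041, instead of 0.97. The call in mutant mice was lost in 13 of 15 alternatives, 5 of them fits without 1 array, where adjusted p was between 0.0731 and 0.12 in limma.

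Mavs (probe set 10476276), the adaptor of the cytosolic RNA sensors, lay between 8.06 and 8.37 on all 12 epidermal arrays. Its CFA response was 0.04 on the log2 scale in control mice, with a 95% interval of -0.15 to 0.24, and 0.07 in mutant mice, with an interval of -0.13 to 0.28. Neither interval reaches beyond 0.28 on the log2 scale.

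Tbk1 (probe set 10372853), the kinase on which the sensors converge, was at 7.26, 7.27 and 7.19 in naive control and 7.23, 7.21 and 7.24 in naive mutant epidermis. It was at 7.52, 7.78 and 7.72 in CFA control and 7.73, 7.71 and 7.69 in CFA mutant epidermis. All 6 CFA arrays exceeded all 6 naive arrays, and the genotypes overlapped after CFA. The rise was 1.35-fold in control mice, with adjusted p = 0.00942, and 1.39-fold in mutant mice, with adjusted p = 0.00133 in limma. Unlike Sting1, Tbk1 therefore reached one level in all 3 CFA mutant arrays, replicate 3 included. Irf3 (probe set 10552812), the factor that TBK1 phosphorylates, lay between 7.00 and 7.26 on all 12 epidermal arrays, and its CFA response was 0.10 in control and 0.06 in mutant mice on the log2 scale, with adjusted p = 0.426 and 0.678 in limma.

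Of the receptors, Ifngr1 (probe set 10361897), the ligand-binding chain for interferon gamma, responded most. It was at 7.86, 7.76 and 7.73 in naive control and 7.46, 7.75 and 7.42 in naive mutant epidermis. After CFA it was at 9.10, 9.70 and 9.77 in control and 8.44, 8.60 and 9.63 in mutant epidermis. Every CFA array was above every naive array, and mutant replicates 1 and 2 lay below the 3 controls while replicate 3 lay among them. The rise was 3.34-fold in control mice, with adjusted p = 7.48e-05, and 2.55-fold in mutant mice, with adjusted p = 0.00797 in limma.

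Ifnar2 (probe set 10436830), the high-affinity chain of the type I interferon receptor, was at 6.79, 6.48 and 6.44 in naive control and 6.51, 6.49 and 6.35 in naive mutant epidermis. After CFA it was at 7.41, 7.45 and 7.68 in control and 6.85, 7.11 and 7.77 in mutant epidermis. Again the lower 2 mutant values were replicates 1 and 2, and replicate 3 was above the highest control. The rise was 1.92-fold in control mice, with adjusted p = 0.000489, and 1.74-fold in mutant mice, with adjusted p = 0.0213 in limma. The call in mutant mice was lost in 5 of 15 alternatives, among them without naive mutant replicate 1 or 3, with adjusted p = 0.0515 and 0.0671 in limma.

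Ifnar1 (probe set 10436849), the other chain of that receptor, changed less than Ifnar2. It was at 7.47, 7.66 and 7.58 in naive control, 7.62, 7.55 and 7.51 in naive mutant, 7.91, 7.88 and 8.17 in CFA control and 7.60, 7.76 and 8.03 in CFA mutant epidermis. The CFA control arrays were all above the naive ones, and the lowest CFA mutant array overlapped with its naive group. The rise was 1.34-fold in control mice, with adjusted p = 0.0181, and the difference in mutant mice was 1.18-fold, with adjusted p = 0.161 in limma. The call in control mice was lost without naive control replicate 1 or 3, with adjusted p = 0.0731 and 0.0505. That Ifnar1 passed in one genotype does not show that the genotypes differ, and the difference between the 2 responses was -0.18 on the log2 scale, with adjusted p = 0.8 in limma.

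The JAK kinases bound to these receptors stayed close to their naive levels. Jak1 (probe set 10514668) lay between 10.22 and 10.53 on all 12 epidermal arrays, at percentiles of 95.9 to 96.7 within its arrays, and its CFA response was 0.16 in control and 0.03 in mutant mice on the log2 scale, with adjusted p = 0.199 and 0.813. Tyk2 (probe set 10591446), which pairs with IFNAR1, was at 6.23, 6.07 and 6.22 in naive control and 6.20, 6.34 and 6.43 in CFA control epidermis, and at 6.19, 6.39 and 6.30 in naive mutant and 6.59, 6.64 and 6.38 in CFA mutant epidermis. Its response was 0.25 on the log2 scale in mutant mice, with adjusted p = 0.0908, and it passed the test only when CFA mutant replicate 3 was left out, with adjusted p = 0.0387 in limma. After CFA Tyk2 was higher in the mutant than in the controls by 0.22, with adjusted p = 0.623 in limma, the largest difference in that direction among the members. Mavs and Tbk1 were higher by 0.02 and 0.03. Mutant replicate 3 of Tyk2, at 6.38, lay within the range of its controls.

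**Figure D2:**
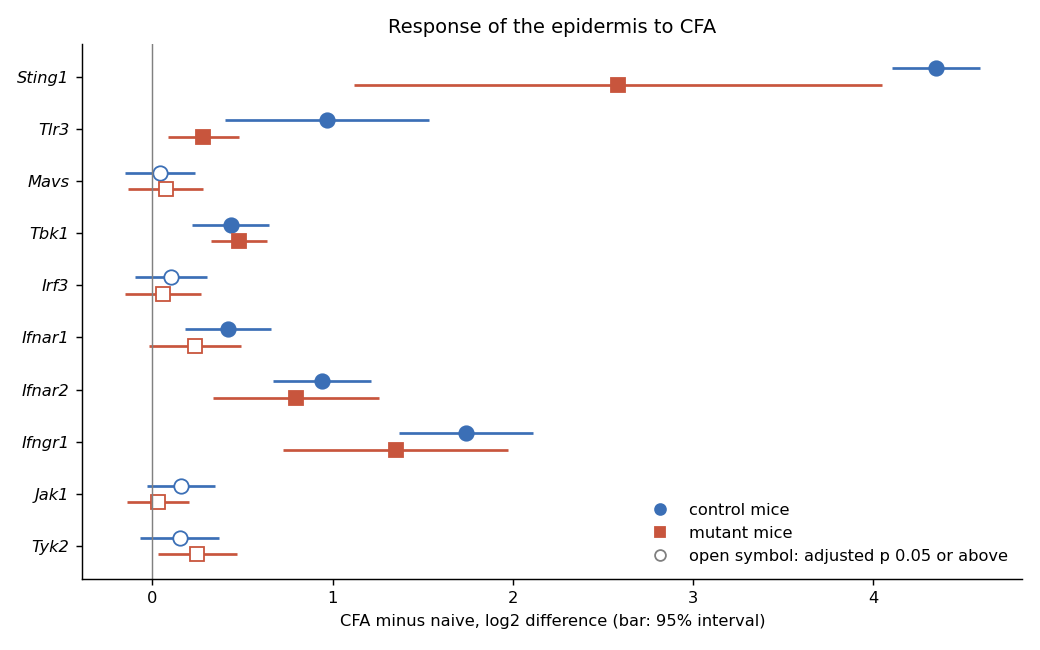
Difference between CFA and naive epidermis for each gene in log2 units (x axis; points are limma estimates from 3 arrays against 3, bars their 95% intervals, filled points an adjusted p under 0.05). Sting1 has the largest rise in both genotypes, 4.35 in control and 2.58 in mutant mice, and the interval of Sting1 in mutant mice is the widest.

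Between genotypes, 0 of the 10 genes passed the test in naive epidermis, where 0.0299% of probe sets did (limma). At an unadjusted p under 0.05 there was 1 of the 10, against 8.94% of all probe sets. That gene, Ifngr1, was lower in the mutant by 0.24 ± 0.10 (log2, SE) with adjusted p = 0.536 in limma, and the ordinary linear model called 0. The naive difference in Sting1 was 0.00, with a 95% interval of -0.30 to 0.29.

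After CFA, 0 of the 10 passed, against 0.179% of all probe sets in limma, and the ordinary linear model also called 0. At an unadjusted p under 0.05 there were 2 of the 10, Sting1 and Tlr3, both lower in the mutant. Of all probe sets 8.96% had such a p, in either direction. Sting1 differed by -1.77 ± 0.60 on the log2 scale, with a 95% interval of -3.12 to -0.42 and adjusted p = 0.396 in limma. Without CFA mutant replicate 3 the difference was -2.69, or 6.44-fold lower, with adjusted p = 2.58e-05 in limma, where the lone estimate of mutant spread comes from 2 arrays. Leaving out any other single array gave adjusted p between 0.484 and 0.85. The Sting1 result therefore depends on 1 array, which was chosen for attention after its values were seen.

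Tlr3 differed by -0.80 ± 0.25 on the log2 scale after CFA, with unadjusted p = 0.0102 and adjusted p = 0.343 in limma, and its 3 mutant arrays, at 5.31 to 5.54, were all below its 3 control arrays, at 5.81 to 6.97. Without CFA mutant replicate 3 the difference was -0.73, with adjusted p = 0.457, and without CFA control replicate 2 it was -0.45, with adjusted p = 0.374 in limma. Ifngr1 differed by -0.63, Ifnar2 by -0.27 and Ifnar1 by -0.19, with adjusted p = 0.571, 0.778 and 0.755 in limma, and without replicate 3 by -0.9997, -0.53 and -0.31, with adjusted p = 0.0722, 0.172 and 0.487 in limma. Tbk1 differed by 0.03, with a 95% interval of -0.19 to 0.25.

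The difference between genotypes in the CFA response was called for 0 of the 10 genes, against 0.0256% of all probe sets in limma, and the ordinary linear model called 0. Sting1 and Tlr3 were the 2 with an unadjusted p under 0.05, which 8.26% of all probe sets had. For Sting1 the response of the mutant was smaller by 1.76 on the log2 scale, written as -1.76 ± 0.74, with adjusted p = 0.552, and without CFA mutant replicate 3 it was -2.68 with adjusted p = 3.88e-05 in limma. For Tlr3 it was -0.69 ± 0.30 with adjusted p = 0.577, and -0.33 without CFA control replicate 2, with adjusted p = 0.513 in limma. For Tbk1 it was 0.05 ± 0.11 with adjusted p = 0.945 in limma.

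Seen array by array, the 6 genes that rose in control epidermis fell into 3 sets after CFA. For Sting1, Ifnar1, Ifnar2 and Ifngr1, 4 of the 6, mutant replicates 1 and 2 lay below every control array and replicate 3 did not, a layout found in 15.5% of the 2683 probe sets that rose with CFA in control epidermis. For Tlr3 all 3 mutant arrays lay below every control array, which 17.8% of those probe sets did, and Tbk1 did neither. These sets were read from the values, so they are a description with no test. Over the 12 epidermal arrays Sting1 correlated with Ifngr1 at r = 0.97, with Ifnar2 at 0.96 and with Ifnar1 at 0.90, and with Tlr3 at 0.71. The 12 arrays share the step from naive to CFA, which by itself gives high values. The 5 genes with the pattern most like Sting1 were Ksr1, a scaffold of the MAP kinase pathway, with r = 0.991, Tmem176b with 0.990, Slc39a14, a metal ion transporter, with 0.989, Sectm1a with 0.989 and Tmem176a with 0.988, out of 21789 probe sets. In each of these 5, as in Sting1, CFA mutant replicate 3 lay near or above the control arrays, which follows from choosing them by a correlation that includes this array and supports nothing. Ksr1, for example, was at 7.47 to 7.60 in CFA control epidermis and at 6.74, 6.75 and 7.54 in the CFA mutant.

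**Figure D3:**
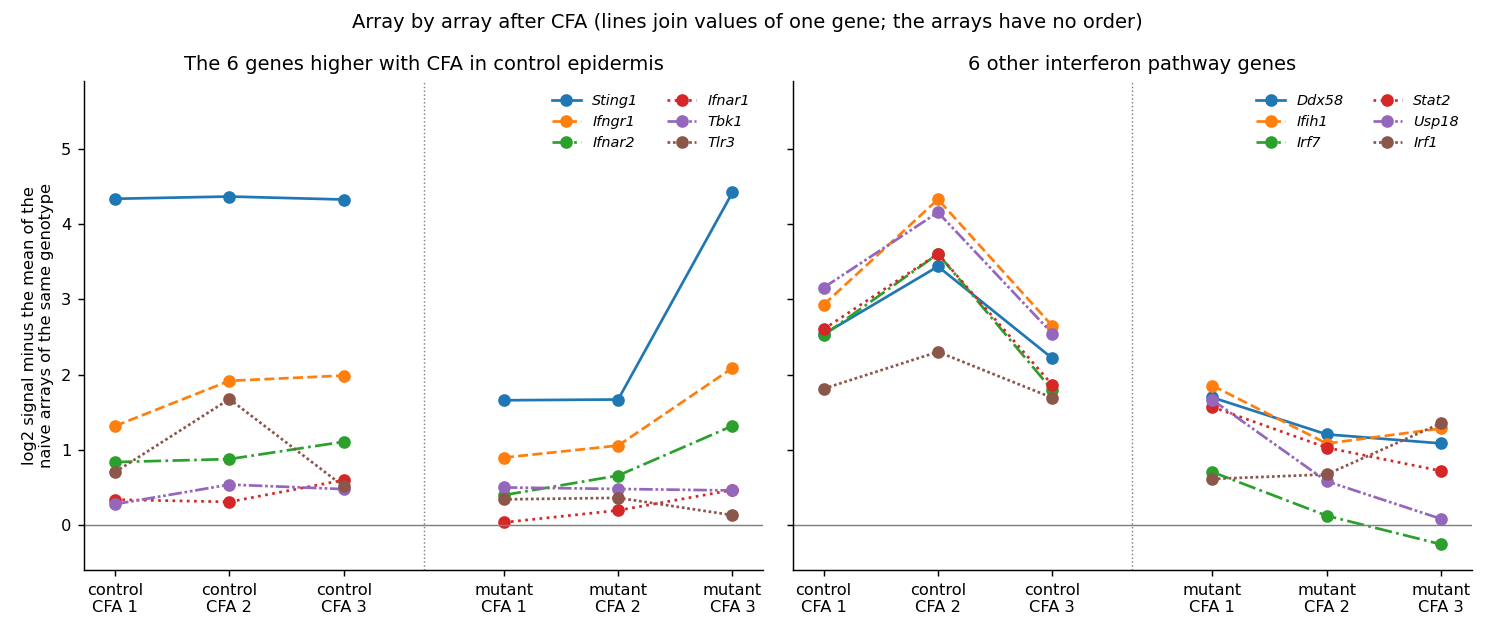
Log2 signal on each CFA array minus the mean of the 3 naive arrays of the same genotype (y axis), for the 6 genes that rose in control epidermis (left) and for 6 other interferon pathway genes (right); each point is 1 array, and the lines join points of a gene and imply no order. Sting1, Ifngr1, Ifnar2 and Ifnar1 are lowest on mutant arrays 1 and 2 and at control level on mutant array 3, whereas Tlr3 and the genes on the right are highest on control array 2 and, on mutant array 3, remain below the controls. The 6 genes on the right all have the layout of Tlr3, so the contrast comes from the choice of genes. Unc93b1, Stat3 and Socs3, pathway genes with the layout of Sting1, are not shown.

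The rest of the pathway was read from 9 lists with 75 of 84 genes measured. In control epidermis 24 of the 75 rose after CFA and 12 fell, and in mutant epidermis 19 rose and 11 fell (limma, adjusted p under 0.05), against the same 26.3% and 26.0% of all probe sets. Several of these genes, among them Usp18, Ifih1, Zbp1, Trim25, Stat2 and Socs1, are named by the study from these arrays, so their direction is not independent evidence. Of 8 measured RNA sensors, which signal through MAVS or act on foreign RNA directly, 7 rose in control mice with a list median of 2.04 on the log2 scale and 6 rose in mutant mice with a median of 0.75. The largest rises in control mice were those of Ifih1, 9.84-fold, Ddx58, 6.64-fold, and Dhx58, 5.30-fold, the last being a regulator of the other two, and in mutant mice they were 2.66-fold, 2.52-fold and 1.86-fold. Of 8 interferon regulatory factors and STATs, 6 rose in control mice, with a median of 1.55, and 5 in mutant mice, with 0.78. Stat2, the partner of the receptors' STAT complex, rose 6.45-fold in control mice and by 2.16-fold in the mutant. Irf7, which amplifies interferon production, rose 6.23-fold in control mice, and in mutant mice was at 6.43, 5.85 and 5.47 after CFA against a naive mean of 5.72.

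In the other lists fewer of the genes rose. Of 11 DNA sensors and nucleases, 3 rose and 3 fell in control mice, and in mutant mice 2 rose and 3 fell. Samhd1, which degrades nucleotides, rose 3.82-fold and the lysosomal nuclease Dnase2a fell by 0.90 on the log2 scale in control mice. Cgas, the enzyme that makes STING's messenger, was not called and lay at 4.26 to 4.74 on the 12 epidermal arrays, at or near background. Of 9 further adaptors and kinases, 1 rose and 3 fell in control mice, and 4 rose and 3 fell in mutant mice, with list medians of 0.03 and 0.21 on the log2 scale. In control mice Trim25, a ligase that acts on the RNA sensor RIG-I, rose 2.82-fold and Traf6 fell by 1.60 on the log2 scale. Of 14 inhibitors, 3 rose and 3 fell in control mice, and 0 rose and 3 fell in mutant mice. Usp18, which dampens signalling at IFNAR2, rose 9.77-fold, and the phosphatase Dusp1 fell by 3.35 on the log2 scale. Of the 7 genes listed under STING traffic, 1 rose in control mice, Ifi35 by 2.22-fold, while Npc1 and Stim1 fell by 0.78 and 0.44 on the log2 scale. The list name is only a label, and a part of Ifi35 in STING traffic was not tested. Of the 4 other receptor chains and JAKs, 0 rose in control mice and 1, Jak2, rose in mutant mice. Of 7 interferon genes the only one called was Ifnb1, at 3.77 to 3.97 in CFA control epidermis, below background.

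**Figure D4:**
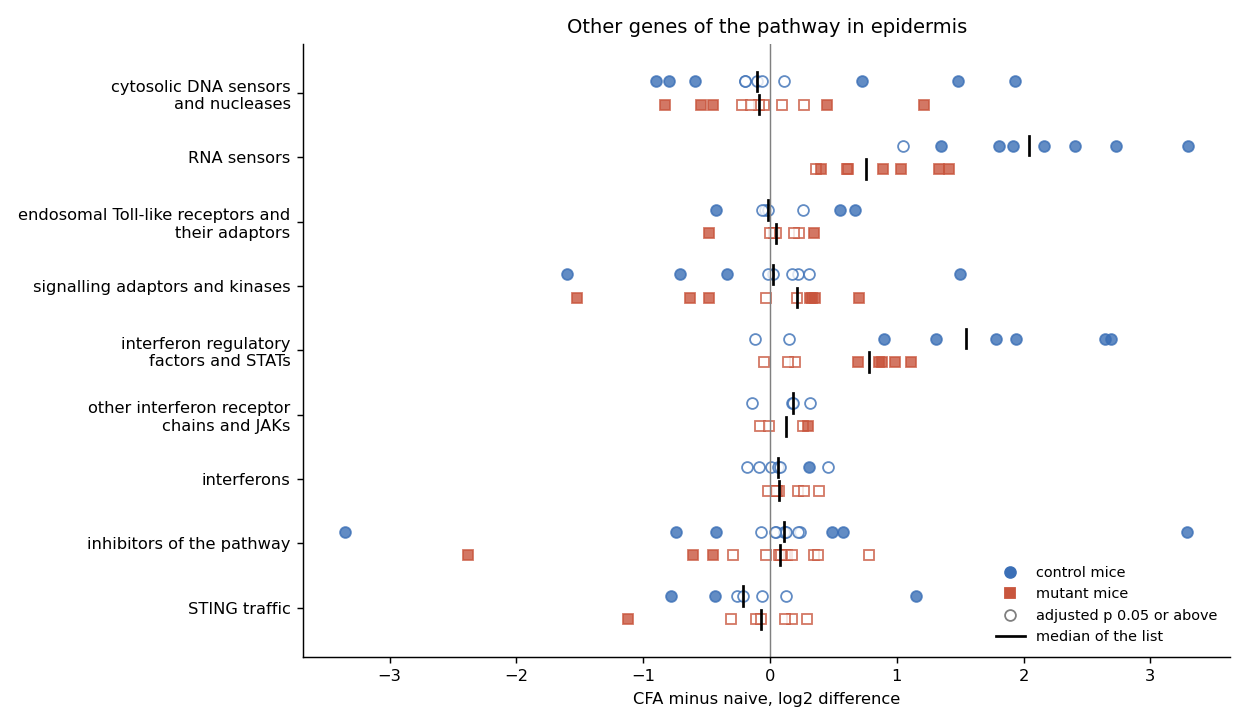
CFA minus naive log2 difference (x axis) of each of the 75 other pathway genes by list, in control (blue circles) and mutant epidermis (red squares), 3 arrays against 3; filled symbols have an adjusted p under 0.05 and the black bar is the list median. RNA sensors and the interferon regulatory factors with STATs stand to the right, with medians of 2.04 and 1.55 in control and 0.75 and 0.78 in mutant mice, and the other lists lie on both sides of 0.

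Between genotypes after CFA, 0 of the 75 pathway genes passed the test in limma, although 22 had an unadjusted p under 0.05, as 8.96% of all probe sets had, and 19 of the 22 were lower in the mutant. With all 4 epidermal groups in one fit 8 were called lower, and with the replicate block 10. The trend and robust options gave 1, fits without 1 array gave 0 to 4, and the remaining settings gave 0. The share of all probe sets called in the joint fit is not given here, so its 8 cannot be set against one. The smallest p was that of Irf7, with a difference of -2.23 ± 0.39 on the log2 scale and adjusted p = 0.083, followed by Usp18 with -2.41 ± 0.44 and adjusted p = 0.0846 in limma. Of the 24 pathway genes that rose in control mice, 16 had all 3 mutant arrays below every control array, as Tlr3 had, and 3, namely Unc93b1, Stat3 and Socs3, had the layout of Sting1. Of the 2683 probe sets that rose there, 17.8% had the layout of Tlr3 and 15.5% that of Sting1, so the 3 genes do not exceed that share. In Ddx58, for example, the CFA control arrays were at 9.33, 10.23 and 9.01 and the CFA mutant arrays at 8.44, 7.95 and 7.83. Stat3, by contrast, was at 9.57, 9.80 and 9.83 in CFA control and at 9.43, 9.43 and 9.83 in CFA mutant epidermis. The naive and DRG comparisons and the difference in response called 0 of the 75, with 2, 4 and 20 at an unadjusted p under 0.05 in limma, where 8.94%, 7.15% and 8.26% of all probe sets were.

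Peeled epidermis holds immune cells beside keratinocytes, and fewer cells of a type cannot be told apart from less RNA per cell in such samples. The mean log2 signal of 10 macrophage and dendritic cell markers was 5.42 to 5.62 in CFA control and 5.15 to 5.30 in CFA mutant epidermis, and that of 3 Langerhans cell markers was 7.44 to 7.63 and 7.00 to 7.14. The 2 genotypes did not overlap in either list, but this was not particular to these cells. Keratinocyte markers, at 11.902 to 11.957 in CFA control and 11.855 to 11.900 in CFA mutant epidermis, did not overlap either. Nor did endothelial markers, at 4.34 to 4.48 and 4.23 to 4.31, below background. The share of all probe sets that did not overlap between these groups is not given here. Of the 13 markers 2 were called lower in the mutant in limma, where 0.179% of all probe sets were called in either direction. They were Csf1r, by 0.78 with adjusted p = 0.0103, and Fcgr3, by 1.02 with adjusted p = 0.0308, both on the log2 scale. Lyz2, Cd14 and Cd68 were higher in the mutant by 0.39, 0.26 and 0.07 on the log2 scale without passing the test, with adjusted p = 0.738, 0.796 and 0.938 in limma. The defining macrophage genes Adgre1 and Mrc1 were below background on all 12 epidermal arrays. CFA mutant replicate 3 was the highest of the mutant arrays in the first list, at 5.30, and the lowest in the second, at 7.00, below every control array in both. Itgam, an integrin of myeloid cells, was at 6.49, 6.67 and 7.05 in CFA control and at 5.80, 5.80 and 6.89 in CFA mutant epidermis, the layout of Sting1. The part of these cells in the results for Sting1, Tlr3 and the receptors was not tested.

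Sequence before the start sites was compared for the genes that moved. The RefSeq promoter table (GRCm38.p6) held 9 of the 10 genes, all except Sting1. The 250 bases before each start were searched on both strands for the interferon-stimulated response element GAAANNGAAA, for the shorter core bound by interferon regulatory factors, AANNGAAA, which every response element also contains, and for the gamma-activated site bound by STAT dimers, TTCNNNGAA. Of all 32851 windows, 2.98% held the first, 21.3% the second and 7.02% the third. Among the 9 genes, 0 held the response element, 1 held the core, Tlr3, and 1 held the gamma-activated site, Ifnar2. The windows of Tlr3 (chr8:45410381-45410630, minus strand), Ifnar2 (chr16:91372533-91372782, plus strand) and Ifngr1 (chr10:19591699-19591948, plus strand) are printed since these genes rose most after Sting1 in control epidermis, and that of Stat2 (chr10:128270248-128270497, plus strand) since it rose with Tlr3 in the same array layout and holds the response element. They run 5′ to 3′ on the gene's strand, and capitals mark matches to the 3 motifs.
Tlr3: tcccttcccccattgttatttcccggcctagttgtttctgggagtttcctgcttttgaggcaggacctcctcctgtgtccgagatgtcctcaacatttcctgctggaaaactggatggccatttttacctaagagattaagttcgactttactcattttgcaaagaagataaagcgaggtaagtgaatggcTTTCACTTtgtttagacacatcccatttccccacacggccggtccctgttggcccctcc
Ifnar2: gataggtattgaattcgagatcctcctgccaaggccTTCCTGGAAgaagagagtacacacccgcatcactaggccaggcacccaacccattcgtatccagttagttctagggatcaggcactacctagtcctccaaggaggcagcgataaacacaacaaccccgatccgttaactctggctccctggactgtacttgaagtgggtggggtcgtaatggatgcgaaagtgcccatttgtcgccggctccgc
Ifngr1: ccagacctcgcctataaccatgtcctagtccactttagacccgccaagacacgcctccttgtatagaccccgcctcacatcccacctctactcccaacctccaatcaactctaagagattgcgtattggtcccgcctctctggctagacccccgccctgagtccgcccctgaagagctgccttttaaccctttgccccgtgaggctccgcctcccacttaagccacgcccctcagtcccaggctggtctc
Stat2: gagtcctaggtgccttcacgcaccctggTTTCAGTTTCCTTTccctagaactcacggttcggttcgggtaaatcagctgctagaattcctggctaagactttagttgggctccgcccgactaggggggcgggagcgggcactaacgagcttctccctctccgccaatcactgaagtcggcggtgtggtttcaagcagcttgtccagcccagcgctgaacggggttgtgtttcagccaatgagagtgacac
A match is a run of letters and no measured binding. Stat2 was chosen because it holds the response element, so its match does not link that element to an array layout. The match in Tlr3 starts 59 bases before the start site and lies on the opposite strand, the match in Ifnar2 starts 214 bases before it, Ifngr1 has none in its window, and the overlapping matches in Stat2 start 222 and 216 bases before its own.

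In DRG, where Cre under a keratinocyte promoter is not expected to act, 0 of the 10 genes differed between genotypes, against 0.0726% of probe sets in limma, and the ordinary linear model called 0. Sting1 was at 6.97, 7.20 and 7.36 in control and 7.02, 7.15 and 7.27 in mutant DRG, with a difference of -0.03 and a 95% interval of -0.28 to 0.22. Ifngr1 was the only 1 of the 10 with an unadjusted p under 0.05, which 7.15% of all probe sets had. It was at 8.55, 8.60 and 8.59 in control and at 8.73, 8.80 and 8.68 in mutant DRG, so the groups did not overlap, and the mutant was higher by 0.16 ± 0.07 on the log2 scale with adjusted p = 0.692 in limma. In naive epidermis the same gene had been lower in the mutant. Tbk1, at 8.83, 8.87 and 8.99 in control and 8.77, 8.77 and 8.73 in mutant DRG, and Ifnar1, at 9.31, 9.22 and 9.22 against 9.18, 9.12 and 9.15, also did not overlap between groups, with adjusted p = 0.715 and 0.742 in limma. That makes 3 of the 10, and 11.8% of all probe sets had DRG groups that did not overlap. The other 7 genes overlapped between genotypes, among them Tlr3, at 6.89, 7.16 and 7.01 in control and 6.97, 7.18 and 6.96 in mutant DRG.

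**Figure D5:**
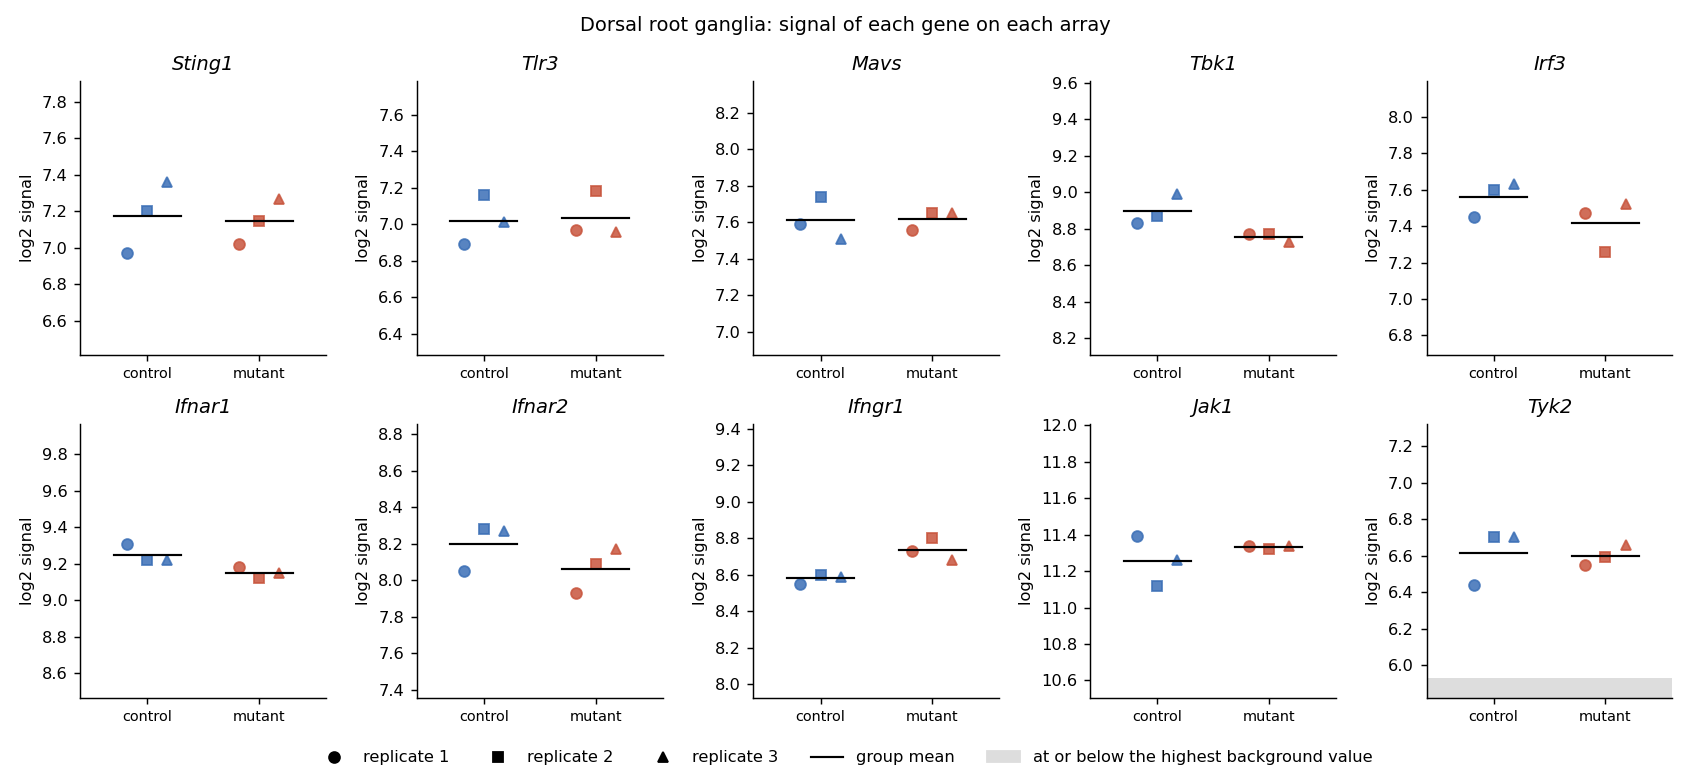
Log2 signal of the 10 genes (y axis, a separate scale in each panel) on the 6 DRG arrays, by genotype (x axis; one symbol per replicate, black bar for the mean of 3 arrays). The genotypes overlap for 7 genes, and for Tbk1, Ifnar1 and Ifngr1 they separate by 0.16 or less on average.

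The tissues were normalised apart, so they were set side by side only by the rank of a probe set within its own array, as a percentile of the probe sets tested and with no test. Sting1 ranked at 29.1 to 35.9% in naive epidermis, at 51.1 to 58.2% in DRG and at 91.5 to 92.3% in CFA control epidermis. Tlr3 ranked at 39.4 to 43.7% in naive epidermis and at 49.3 to 54.5% in DRG. The receptor chains Ifnar1 and Ifnar2 also ranked higher in DRG, at 86.3 to 88.2% and 69.7 to 76.0%, than in naive epidermis, at 72.9 to 76.3% and 58.1 to 63.5%, as did Tbk1, at 82.1 to 85.5% against 69.8 to 70.9%. Mavs went the other way, with 61.1 to 66.3% in DRG and 81.8 to 83.1% in naive epidermis, as did Irf3, with 56.1 to 63.7% and 67.4 to 69.7%, and Tyk2, with 40.5 to 45.2% and 53.9 to 58.6%. Jak1 was among the highest in both tissues, at 95.9 to 96.0% in naive epidermis and 98.2 to 98.7% in DRG.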

How the data were processed

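The authors hybridised RNA of peeled glabrous hindpaw epidermis and of DRG to 18 Affymetrix Mouse Gene ST arrays, 3 biological replicates in each of 6 groups. The deposited values are log2 signals of probe sets, which the authors obtained by RMA and analysed by ANOVA in Partek Genomics Suite. They were not transformed further here. RMA brings arrays to a common distribution and compresses differences near background. With 3 arrays a group, precision is limited by their number.

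Of 35556 probe sets, the platform annotation pairs 23410 with at least 1 gene, which were tested, and 21789 with exactly 1 gene, which were used for names. Each comparison was fitted with limma 3.58.1 (lmFit, eBayes; R 4.3.3) to the groups it compares, two-sided, with Benjamini-Hochberg adjustment over all probe sets tested, and an adjusted p under 0.05 was called. A gene in a list was counted by its brightest probe set. Named genes were every member, up to 3 called genes with the largest change per pathway list (otherwise the smallest p), and the 5 genes most correlated with Sting1. Cgas, Stat3, Socs3, Unc93b1 and the named cell markers were chosen after their values were seen. Members, lists, motifs and tests were chosen with earlier results of these data known. The fits were tested on simulated data with known changes. Motifs were searched with Python in RefSeq windows.

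The settings varied were the normalization (quantile, median), the probe sets tested (bright only, or the whole table), the variance model (trend and robust, or an ordinary linear model), a replicate block, a 2-fold threshold, a joint fit of the 4 epidermal groups, and each array left out in turn.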

Additional observations from a re-analysis of the deposited data

How the results depend on the processing

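Over all alternatives, 909 values of single genes kept their side of the threshold, 37 lost the call and 4 gained it. In 46 of the 950 the sign changed, all for differences of 0.15 or less on the log2 scale that were called neither before nor after (limma, smallest adjusted p = 0.844). In control epidermis the 6 called genes became 2 at the 2-fold threshold that the study's methods use and 4 with the ordinary linear model. There Tlr3 lost the call in 6 of 15 alternatives and Ifnar1 in 4 of 15. In mutant epidermis the 5 called genes became 2 with all probe sets of the table tested, 3 with the trend and robust options, 1 with the ordinary linear model and 2 at the 2-fold threshold, and leaving out 1 array gave 2 to 6. In CFA epidermis, and in the difference between responses, leaving out 1 array gave 0 to 1 called genes, the 1 being Sting1 without CFA mutant replicate 3. The labels do not say whether same-numbered arrays were paired. Their deviations from the group means correlated at r = -0.24 to 0.23, which does not settle it. With the replicate block 1 member, Tlr3 with adjusted p = 0.0477 in limma, was called lower in CFA mutant epidermis. In that fit 289 probe sets were called instead of 42, and 10 of the 75 pathway genes instead of 0. The block moved no other count of members by over 1.5 times. The 24 pathway genes that rose in control epidermis became 12 with the ordinary linear model and 17 at the 2-fold threshold, and the 19 in mutant epidermis became 11 and 5. The causes were not tested. With 3 arrays a group and Sting1 at background in naive epidermis, small differences between genotypes and the full size of its rise were not measurable here.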
